A study of Rattus norvegicus with 48 samples.

Results

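The miR-221 and miR-222 cluster was followed in 2 brain regions of adolescent rats, amygdala [A] and ventral striatum [V]. Its members were chosen by name. They were the 5 names of the deposited table that belong to the cluster, out of 1063 names in all: the mature miR-221-3p, miR-221-5p and miR-222-3p among 612 mature names, and the precursors mir-221 and mir-222 among 451 precursor names. The cluster was picked because the study had listed its mature miRNAs for treatment effects in the amygdala of these same libraries. The amygdala treatment contrasts are therefore given as a description with no test, while the ventral striatum, the regions, the sexes and the ratios between members were tested.

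Small RNAs were sequenced from 48 pools of total RNA, 24 from each region, and each pool held RNA from 3 Long Evans rats of one sex and treatment, taken on postnatal day 42. The controls were born to dams injected with saline, and the ethanol-exposed rats to dams given ethanol by intraperitoneal injection, in both cases on one day in mid-gestation. From weaning, non-enriched rats lived with littermates of their own sex, and socially enriched rats lived with unfamiliar rats of the same sex and age whose dams had received no treatment. Each region had 6 pools of each of the 4 treatment groups (control non-enriched, control enriched, ethanol-exposed non-enriched, ethanol-exposed enriched), 3 of females (replicates F1 to F3) and 3 of males (M1 to M3). The pools are the replicates, so the spread among single rats was averaged out, and nothing in the sources used here says which litters entered which pool. Both regions were dissected from the same rats, so libraries of the 2 regions were not independent, but the sources used here do not say whether a pool of one region held the same rats as a pool of the other. The tests between regions took all libraries as independent, and values with consecutive library numbers as a block stand beside them where a call changed. Values are reads per 1000000 (RPM), counted separately for mature names and for precursor names. The authors selected small RNAs of about mature length on a gel before sequencing. Reads under a precursor name are therefore short reads that match the hairpin, not whole hairpins.

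A miRNA precursor is a hairpin that is cut into a short duplex, and each strand of it, the 5p or the 3p arm, can become a mature miRNA. The mature strand guides repression of mRNAs chiefly through its seed, bases 2 to 8 from its 5′ end. The hairpins of miR-221 and miR-222 lie next to each other and are known to be transcribed together. In dividing cells both are induced by growth factors and lower the cell cycle inhibitor p27Kip1 (Cdkn1b) and the receptor Kit, in blood vessels they act in endothelium and smooth muscle, and in neurons they have been linked to nerve growth factor signalling and neurite growth.

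The sequences show why the 3p members are counted as one family. They are from RefSeq for the rat assembly GRCr8, where both hairpins lie on the plus strand of chromosome X with 458 bases between them, and all 5 names were matched. The seed is in capitals in the mature sequences.
miR-221-3p: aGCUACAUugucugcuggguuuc
miR-222-3p: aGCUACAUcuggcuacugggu
miR-221-5p: aCCUGGCAuacaauguagauuuc
miR-222-5p: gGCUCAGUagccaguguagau
The first 8 bases of miR-221-3p (23 bases) and miR-222-3p (21 bases) were the same, and the seed GCUACAU was held by these 2 of 693 rat mature names in RefSeq and by no other. After the shared start the 3p sequences have no longer run in common, so a read of full length belongs to one or the other. miR-221-5p has a different seed. The other arm of mir-222, miR-222-5p, is shown because it is not one of the names in the deposited table, which bears on the precursor values. The hairpins are given with the arms that the table names in capitals.
mir-221: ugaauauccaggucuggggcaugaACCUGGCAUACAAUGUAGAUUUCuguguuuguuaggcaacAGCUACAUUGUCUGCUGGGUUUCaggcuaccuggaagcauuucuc
mir-222: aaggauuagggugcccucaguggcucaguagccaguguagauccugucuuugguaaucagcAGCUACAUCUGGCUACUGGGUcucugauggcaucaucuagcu

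The libraries held 363141 to 1287699 mature reads in the amygdala and 739464 to 1370413 in the ventral striatum, so 1 read was worth 0.777 to 2.75 RPM and 0.730 to 1.35 RPM. In 9 amygdala libraries there were fewer reads than in any ventral striatum library. A pair of amygdala libraries, ethanol-exposed non-enriched replicates F2 and M3, stood apart by their choroid plexus miRNAs: miR-204-5p and miR-211-5p summed to 122541 and 108016 RPM there, against at most 37334 RPM in any other library. The fits between regions and sexes and the ratios were also computed without each set in turn. The amygdala contrasts were also computed without the choroid-rich pair, but not without the 9 libraries of few reads. Spread, correlations and marker comparisons were computed with all libraries only.

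Every member was above 0 in all 48 libraries. Of the mature members miR-221-3p had the most reads counted under its name. It ranked 60 in the amygdala against 59 in the ventral striatum among 612 mature names by its median. miR-222-3p, with the same seed, ranked 177 and 185, and miR-221-5p ranked 220 and 242. These ranks are of reads counted under a name, and the names held unequal shares of their hairpins' reads, as given with the precursors. The precursors ranked closer to each other, mir-221 at 66 and 74 and mir-222 at 78 and 89 of 451 precursor names. Behind the medians were 1515.5 and 1788.5 reads of miR-221-3p in the amygdala and the ventral striatum, 91 and 101 reads of miR-222-3p, and 34.5 reads of miR-221-5p in both. Counting error therefore weighs most on miR-221-5p, whose lowest library had 12 reads.

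Levels of miR-221-3p in the amygdala ran from 1895 to 2374 RPM with a median of 2033 in control non-enriched pools, from 1589 to 1927 (median 1729) in control enriched pools, from 1257 to 2242 (median 1603) in ethanol-exposed non-enriched pools and from 1520.3 to 2262 (median 1955) in ethanol-exposed enriched pools. In the ventral striatum the same groups had 1523 to 2129 RPM (median 1726), 851 to 2437 (median 1614), 906 to 3632 (median 2100.1) and 861 to 2975 (median 1643). The lowest and the highest of the 48 libraries were thus both from the ventral striatum.

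Levels of miR-222-3p in the amygdala were 102 to 148 RPM (median 122) in control non-enriched, 98.7 to 115 (median 104) in control enriched, 65.99 to 131 (median 97.5) in ethanol-exposed non-enriched and 97.6 to 138 (median 129) in ethanol-exposed enriched pools. In the ventral striatum they were 74.3 to 96.7 RPM (median 92.5), 59.5 to 117 (median 99.9), 78.1 to 181 (median 92.8) and 86.9 to 158 (median 90.4) in the same order. The group medians of the ventral striatum lay within 10 RPM of each other.

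Levels of miR-221-5p, the less abundant arm, were 39.6 to 59.2 RPM (median 53.2), 27.4 to 55.4 (median 43.1), 29.3 to 56.5 (median 32.2) and 38.8 to 70.1 (median 51.96) in the amygdala groups in that order. In the ventral striatum they were 28.5 to 43.6 RPM (median 34), 21.6 to 41.1 (median 28.3), 12.5 to 39.5 (median 31.4) and 17.9 to 46.1 (median 31.2). Each ventral striatum median was below the amygdala median of the same treatment.

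**Figure D1:**
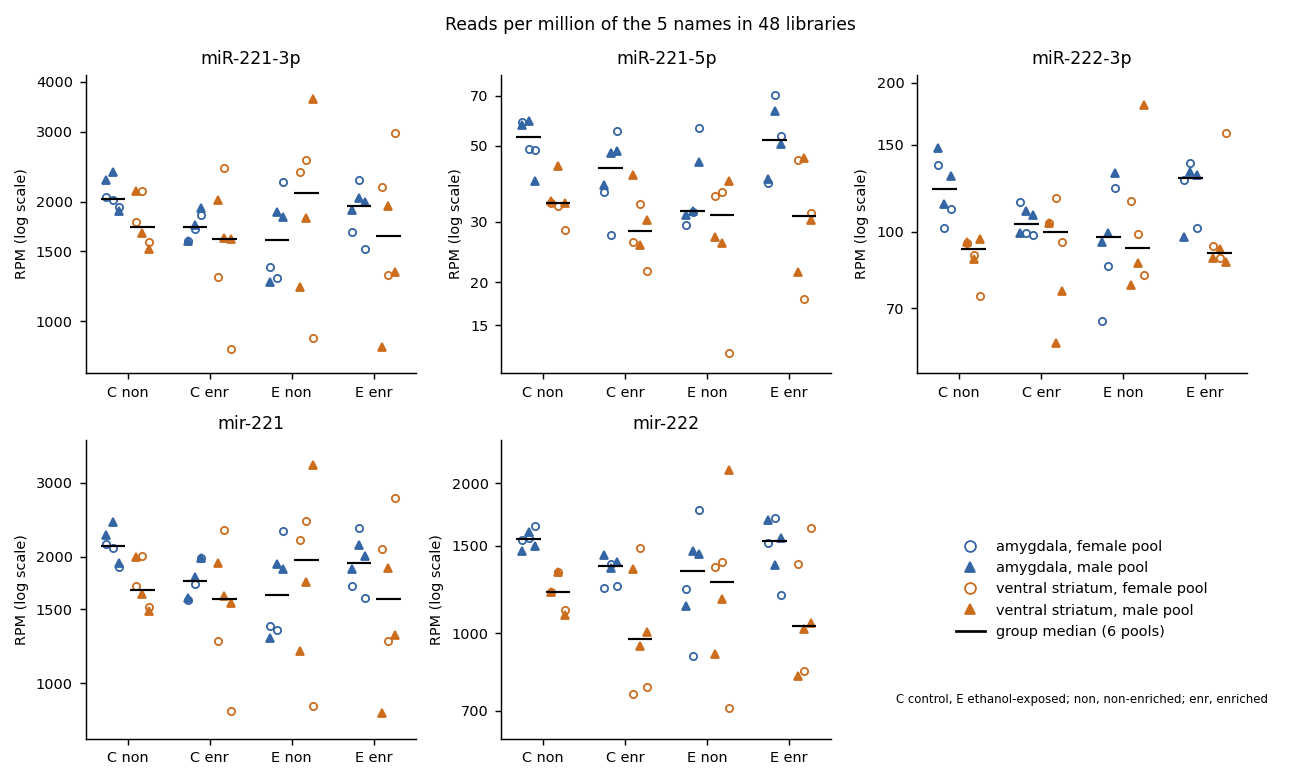
RPM (log scale) of the 5 names by treatment group, with 1 point per library (circles female pools, triangles male pools) and a line at the median of the 6 pools. Ventral striatum points of miR-221-3p spread from 851 to 3632 RPM against 1257 to 2374 in the amygdala, and the miR-221-5p medians of the ventral striatum lie below those of the amygdala in all 4 groups.

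The first comparison asked whether the cluster differs between the regions. The less abundant arm and one precursor name did: miR-221-5p and mir-222 were lower in the ventral striatum. No difference was called for miR-221-3p, miR-222-3p or mir-221. miR-221-5p had a median of 48.0 RPM in the amygdala (27.4 to 70.1) against 32.7 RPM in the ventral striatum (12.5 to 46.1). On the log2(RPM + 1) scale it was lower by 0.55 (log2 difference −0.55, SE 0.12, 95% interval −0.79 to −0.30, limma adjusted p = 0.000706). The ranges overlapped, and in 20 of 24 pairs of libraries of one treatment and sex with consecutive library numbers the ventral striatum value was the lower.

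mir-222 had a median of 1453 RPM in the amygdala (900.2 to 1765) against 1143 RPM in the ventral striatum (708 to 2124), a log2 difference of −0.33 (SE 0.09, limma adjusted p = 0.00891), again lower in 20 of these 24 pairs. The highest mir-222 value of all was nevertheless in the ventral striatum. miR-222-3p, the mature form cut from it, had medians of 111 and 92.9 RPM, and its log2 difference of −0.22 (SE 0.08) had a limma adjusted p of 0.0506. With consecutive library numbers as a random block the adjusted p was 0.0417 by limma, so the call at the threshold of 0.05 turned on whether libraries of the 2 regions were taken as independent, and it also changed under other alternatives given in the closing section.

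miR-221-3p had medians of 1890.1 RPM in the amygdala against 1726 RPM in the ventral striatum. Its log2 difference was −0.09 (SE 0.13, limma adjusted p = 0.661), with a 95% interval from −0.35 to 0.17. mir-221 differed by −0.17 (SE 0.12, limma adjusted p = 0.302), with medians of 1905 and 1665 RPM. The intervals of these names span differences of the size seen for mir-222, so a like difference cannot be told from none.

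Of all 915 names tested between the regions, 30.3% were called, 197 higher and 80 lower in the ventral striatum, and the median log2 difference was 0.08. The cluster, with 2 of 5 names called and a median of −0.22, was called at about that share, and both of its called names were on the lower side. Without the 9 amygdala libraries of few reads, miR-221-5p (log2 difference −0.49, limma adjusted p = 0.0176) and mir-222 (−0.32, 0.0485) were still called. Without both libraries rich in choroid plexus miRNAs the values were −0.54 and −0.35. With depth as a covariate miR-221-5p was at −0.42 (limma adjusted p = 0.0213) and mir-222 at −0.30 (limma adjusted p = 0.0467).

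**Figure D2:**
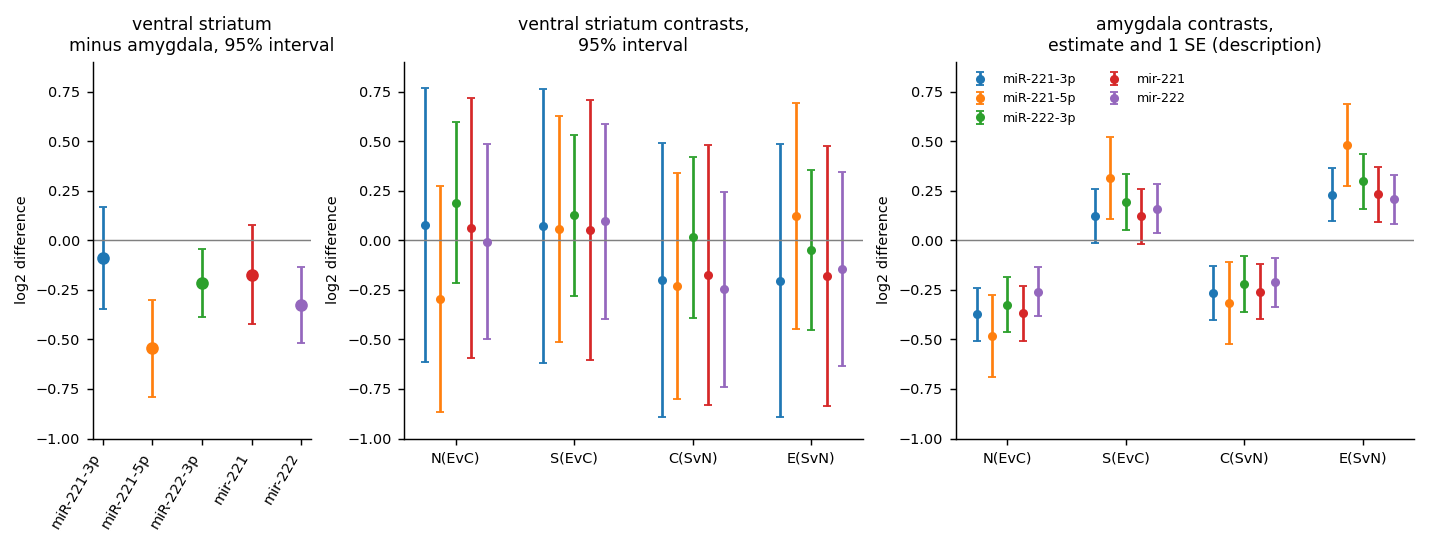
Log2 differences of the 5 names: ventral striatum minus amygdala and the 4 ventral striatum contrasts with 95% intervals, and the 4 amygdala contrasts with 1 SE, shown as a description. Only the miR-221-5p, miR-222-3p and mir-222 intervals between regions lie below 0, and in the amygdala all 5 names have negative values in N(EvC) and C(SvN) and positive values in S(EvC) and E(SvN).

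Other miRNAs known to be induced by growth factors or neuronal activity gave a background for this comparison. Of 10 such names tested, 1 was higher and 4 were lower in the ventral striatum and 5 were not called, with a median log2 difference of 0.08. The smallest p-values were those of miR-23a-3p (−0.40, SE 0.06, limma adjusted p = 2.9e-06) and miR-27a-3p (−0.37, SE 0.06, limma adjusted p = 1.1e-05), which come from one cluster and act in cell growth and vessel formation. The name that was higher was miR-21-5p (0.43, SE 0.08), which is raised in many growing or injured cells. The activity-regulated miR-132 and miR-212 names had values from −0.00 to 0.30 and were not called.

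Marker miRNAs of other cell types also differed between the regions. All 3 oligodendrocyte names (miR-219a-5p, miR-219a-2-3p and miR-338-3p) were higher in the ventral striatum, with log2 differences of 0.59 for miR-219a-2-3p and 0.44 for miR-338-3p, and their sum ran from 6218 to 15920.3 RPM there (median 10324) and from 4671 to 15452 RPM in the amygdala (median 7089). Both choroid plexus names were lower in the ventral striatum, with log2 differences of −1.13 for miR-204-5p and −0.65 for miR-211-5p and sums of 3827 to 6987 RPM against 3120.3 to 122541 RPM. Of 3 neuronal names 1, miR-128-3p, was lower (−0.41), and of 3 mural cell names tested 1, miR-145-5p, was higher (0.26). None of 2 endothelial, 3 red blood cell and 4 microglial names was called. The part of these cell types in the regional values of the cluster was not tested, and in RNA from tissue fewer cells of a type and less RNA per cell cannot be told apart.

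The next question was whether the arms of miR-221 keep one ratio in both regions. They did not. Reads of miR-221-5p amounted to 2.46% of those of miR-221-3p in the amygdala (geometric mean, 1.61% to 3.52% in 24 libraries) and to 1.77% in the ventral striatum (1.07% to 2.61% in 24). The log2 difference of the ratio was −0.47, and a two-sided permutation test gave p = 3.0e-05 (9.0e-05 after adjustment over 3 ratios). With regions permuted only within pairs of consecutive library numbers, p was 1e-05, the smallest that the permutations can give. In the ventral striatum 10 libraries lay below every amygdala library, and in the amygdala 6 lay above every ventral striatum library.

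The arm ratio was lower in the ventral striatum in each sex and in each treatment group. The log2 difference was −0.63 in females (permutation p = 0.00015) and −0.32 in males (permutation p = 0.0170), and whether the sexes differ was not tested. By exact permutation tests with 6 pools per region it was −0.36 in control non-enriched (p = 0.0238), −0.34 in control enriched (p = 0.0823), −0.63 in ethanol-exposed non-enriched (p = 0.00649) and −0.56 in ethanol-exposed enriched rats (p = 0.0390). Without the 9 amygdala libraries of few reads it was −0.42 (permutation p = 0.00043). The arm ratio was not computed with a depth covariate. A ratio within a library does not depend on how that library was scaled, but it rests on 12 to 74 reads of miR-221-5p and shows unequal change, not which arm moved.

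The ratio between the 3p members that share a seed was not called different. Reads of miR-222-3p amounted to 6.09% of those of miR-221-3p in the amygdala (4.79% to 7.60%) and to 5.57% in the ventral striatum (3.67% to 11.2%), a log2 difference of −0.13 (permutation p = 0.186, and the same after adjustment over 3 ratios). The ventral striatum range enclosed the amygdala range. The ratio of the precursors, mir-222 to mir-221, was added after the values were seen and was 76.3% in the amygdala (62.8% to 90.2%) against 68.7% in the ventral striatum (54.4% to 97.1%). Its log2 difference was −0.15 (permutation p = 0.00835, adjusted over 3 ratios 0.0125), with negative values in both sexes and all 4 treatment groups.

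**Figure D3:**
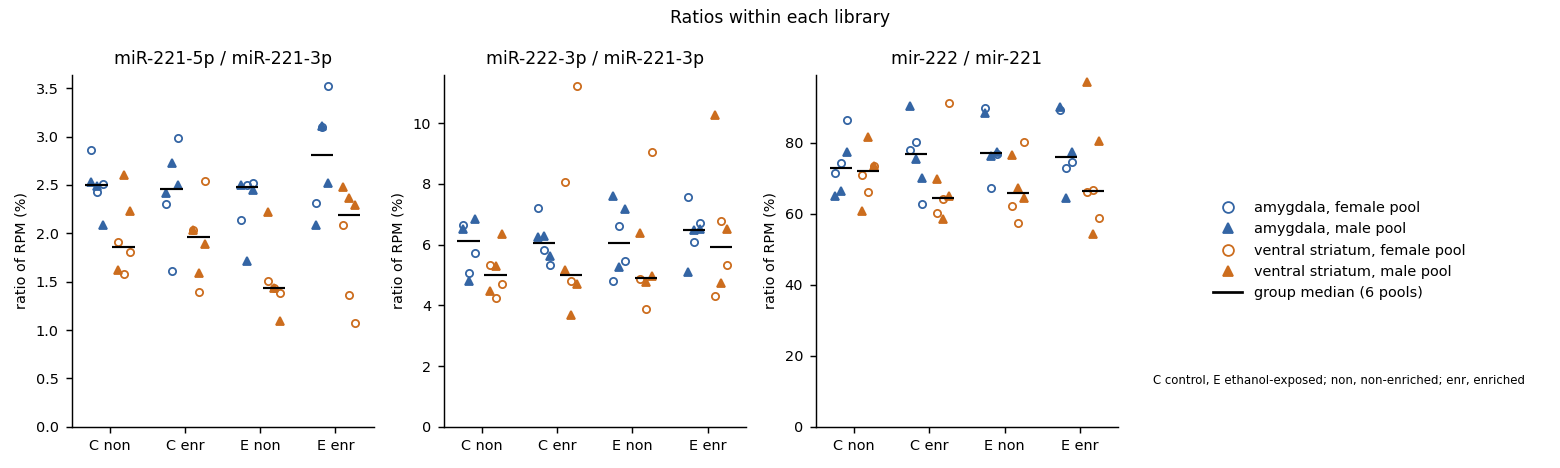
Ratios of RPM within each library, in percent from 0, by treatment group, with 1 point per library and a line at the median of 6 pools. The miR-221-5p to miR-221-3p ratio has lower medians in the ventral striatum in all 4 groups, while miR-222-3p to miR-221-3p reaches from 3.67% to 11.2% in the ventral striatum around the amygdala values of 4.79% to 7.60%.

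Reads on a precursor name and on its mature names can be set side by side, since a read from a mature arm also lies in the hairpin. For mir-221 they nearly matched: reads of both arms amounted to 86.7% of the precursor's reads in the median amygdala library (83.5% to 90.2%) and to 90.7% in the median ventral striatum library (86.3% to 93.7%). For mir-222 they did not. Reads of miR-222-3p amounted to 7.04% of the precursor's in the amygdala (4.68% to 8.60%) and to 6.93% in the ventral striatum (5.34% to 12.02%), which left a median of 1277 and 1218.5 reads per library on the hairpin beyond those of the named arm.

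Other hairpins put mir-222 in context. They were 143 precursors whose names carry no locus number and that had a median of at least 100 reads. Reads of their mature names amounted to a median of 82.1% of the precursor's reads, with quartiles of 36.3% and 98.0%. The values ran from 0% (mir-10b) to 642% (mir-409b), so for some names mature and precursor reads do not match one another. At least 90% was reached by 59 of them, 44 were under 50%, and 13 were at or below mir-222. The hairpin printed above holds miR-222-5p as well as the named 3p arm, and reads on the hairpin that are longer or shorter than the mature sequence would also count only there. Which of these the reads were was not tested, as the table holds sums per name. Most reads behind mir-222 were thus not counted under the name miR-222-3p, and its regional difference is read here as one of the precursor name only.

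**Figure D4:**
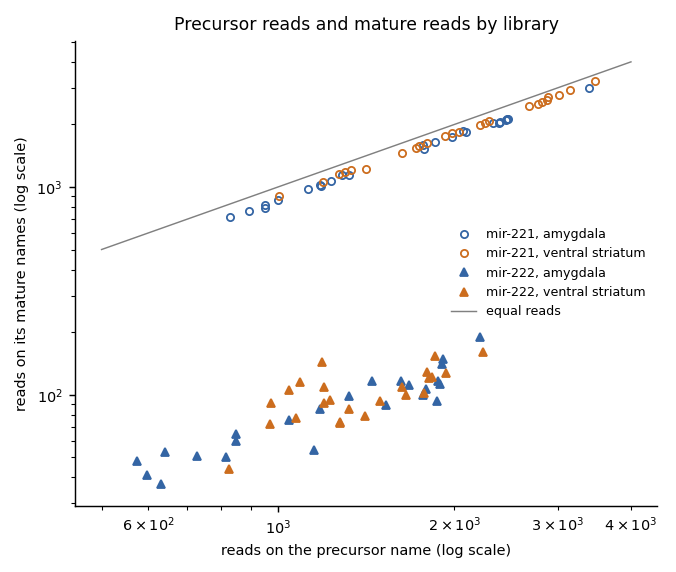
Reads on each precursor name (x, log scale) against reads on its mature names (y, log scale) in 48 libraries, with a line where both are equal. The mir-221 points follow the line at 83.5% to 93.7%, and the mir-222 points lie far below it at 4.68% to 12.02%.

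Treatment contrasts in the ventral striatum asked whether ethanol or enrichment moved the cluster in a region for which the study had not listed it. Ethanol-exposed rats were compared with controls when neither was enriched [N(EvC)] and when both were [S(EvC)], and enriched with non-enriched rats among controls [C(SvN)] and among the ethanol-exposed [E(SvN)]. No member was called in any of them. Of 933 names tested, 0% were called by limma in each of V N(EvC), V S(EvC), V C(SvN) and V E(SvN), and 19, 21, 36 and 17 names had an unadjusted p under 0.05, none of them a member. The 20 member estimates lay between −0.30 and 0.19 on the log2 scale.

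For miR-221-3p the log2 estimates were 0.08 in V N(EvC), 0.07 in V S(EvC), −0.20 in V C(SvN) and −0.20 in V E(SvN), each with an SE of 0.33. The 95% interval of V N(EvC) ran from −0.61 to 0.77, which includes the amygdala value of the same contrast. Ethanol-exposed non-enriched pools lay on both sides of the controls, 2 below and 3 above all 6 control non-enriched pools. miR-222-3p had 0.19 in V N(EvC), 0.13 in V S(EvC), 0.01 in V C(SvN) and −0.05 in V E(SvN), with an SE of 0.19. The first of these depended on single libraries: without ethanol-exposed non-enriched replicate M3 it was 0.0018, and without replicate M1 it was 0.30. miR-221-5p had −0.30, 0.06, −0.23 and 0.12 in the same order, with an SE of 0.27.

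The precursors showed no called difference either: mir-221 ranged from −0.18 to 0.06 and mir-222 from −0.25 to 0.09 over the 4 contrasts. In V C(SvN), 4 of 6 control enriched pools had less mir-222 and 2 had more than all control non-enriched pools, which held 1089 to 1329 RPM against 755 to 1483 RPM. All 5 intervals in every contrast include 0. The contrasts share groups in pairs, so their values are not independent. None of the names of the growth factor and activity list or of the cell type lists was called in these contrasts or between the sexes.

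No member was called between the sexes. Of 915 names tested, 0% were called by limma between males and females over both regions, and 36 had an unadjusted p under 0.05, with 0 members among them. The member estimates, male minus female, ran from −0.00 for miR-222-3p to 0.10 for miR-221-5p (limma adjusted p = 1 for all 5), and their 95% intervals together spanned −0.24 to 0.35. Sex differences within the ventral striatum contrasts were not called: the largest was −0.96 for miR-221-3p in V S(EvC) (SE 0.65, limma adjusted p = 0.931), with a 95% interval from −2.34 to 0.42, wide because each sex and treatment had 3 pools.

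In the amygdala, where the study had listed the mature members, the whole cluster ran one way in each contrast. The 5 names are not separate observations, since miR-221-3p and mir-221 largely share reads and members varied together within groups. No name of 910 tested had a limma adjusted p under 0.05 in any of the amygdala contrasts, so that 0% were called in A N(EvC), A S(EvC), A C(SvN) and A E(SvN), and 41, 35, 24 and 24 names had an unadjusted p under 0.05. In A N(EvC) the log2 values were −0.37 for miR-221-3p (SE 0.13), −0.48 for miR-221-5p (SE 0.21), −0.32 for miR-222-3p (SE 0.14), −0.37 for mir-221 (SE 0.14) and −0.26 for mir-222 (SE 0.12). The median of all names in this contrast was −0.08. For miR-221-3p, 5 of 6 ethanol-exposed non-enriched pools lay below all control non-enriched pools and replicate F3, at 2242 RPM, lay among them.

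In A E(SvN), which shares the ethanol-exposed non-enriched pools, the values were 0.23 for miR-221-3p, 0.48 for miR-221-5p, 0.30 for miR-222-3p, 0.23 for mir-221 and 0.21 for mir-222. The groups overlapped for every member, and for miR-221-5p 4 of 6 non-enriched pools lay below all enriched pools. Single libraries moved these values: miR-221-3p and mir-221 were both 0.36 without non-enriched replicate F3, 0.15 without enriched replicate F2 and 0.14 without non-enriched replicate M1, miR-222-3p was 0.19 without non-enriched replicate F1, and mir-222 was 0.33 without non-enriched replicate F3. In A S(EvC) they were 0.12, 0.31, 0.19, 0.12 and 0.16 in the same order. Without ethanol-exposed enriched replicate F2 the value was 0.038 for miR-221-3p, 0.037 for mir-221 and 0.10 for mir-222, and without control enriched replicate F2 it was 0.20 for miR-221-5p.

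In A C(SvN) the values were −0.27, −0.31, −0.22, −0.26 and −0.21. Here mir-222 had groups without overlap, 1464 to 1638 RPM in control non-enriched pools and 1231 to 1436 RPM in control enriched pools, as did 0.33% of the 910 names (3 in all, 1 of them higher and 2 lower in enriched pools). Without control enriched replicate F2 the miR-221-5p value was −0.20. For miR-221-3p, 5 of 6 control enriched pools lay below all non-enriched pools. Since the 4 contrasts are differences among the same 4 groups, the signs in one bear on the signs in another.

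The ethanol-exposed non-enriched pools, which A N(EvC) and A E(SvN) share, were the least even of the amygdala groups. Their coefficient of variation was 24.3% for miR-221-3p and 22.8% for mir-222, against 9.08% and 4.13% in control non-enriched pools. They included both libraries rich in choroid plexus miRNAs, and their choroid plexus sum ran from 3517 to 122541 RPM. Without those libraries A N(EvC) was −0.34 for miR-221-3p, −0.51 for miR-221-5p, −0.38 for miR-222-3p and −0.17 for mir-222, and A E(SvN) was 0.20, 0.50, 0.35 and 0.12. Without replicate F2 alone the mir-222 values were −0.14 and 0.09. After rescaling by median ratios, in place of the deposited scaling, A N(EvC) was −0.26 for miR-221-3p and −0.16 for mir-222. The part of tissue from the choroid plexus in these values was not tested further.

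Members varied together within groups. Each library was expressed as its deviation from the mean of its region, treatment and sex, and correlations are over the 24 libraries of a region, which share those means, so they are given as a description. For miR-221-3p and miR-222-3p Pearson's r was 0.60 in the amygdala (Spearman's rho 0.49) against 0.71 in the ventral striatum (rho 0.74). Without the 2 libraries farthest from the median it was 0.42 and 0.64. The arms of miR-221 had r of 0.70 and 0.82, and the precursors mir-221 and mir-222 had r of 0.71 and 0.92. miR-221-3p and mir-221 had r of 0.99 and 1.00, which is a matter of shared reads. The weakest pair was miR-221-5p with mir-222 in the amygdala, at r of 0.28 (rho 0.03), against 0.80 in the ventral striatum.

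**Figure D5:**
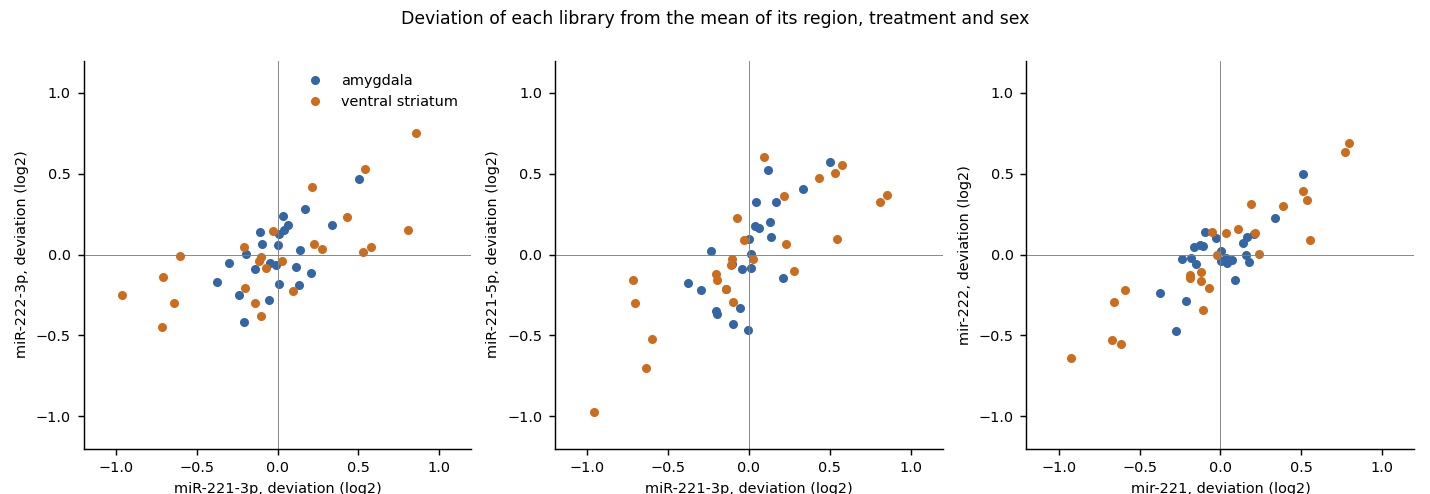
Deviation of each library from the mean of its region, treatment and sex on the log2 scale, for miR-221-3p against miR-222-3p and miR-221-5p and for mir-221 against mir-222, with 1 point per library. The ventral striatum points extend farther along the diagonal than the amygdala points, and r for the precursors is 0.92 in the ventral striatum and 0.71 in the amygdala.

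The spread itself differed between the regions for some members, which was examined after the values were seen. It was computed for the 5 members only, so the share of all names with a wider spread in the ventral striatum is not known. The mean SD within cells of sex and treatment, on the log2 scale, was 0.20 in the amygdala against 0.53 in the ventral striatum for miR-221-3p, and it was the larger in the ventral striatum in 8 of 8 cells (exact sign-flip permutation p = 0.00781, the smallest that 8 cells can give, and 0.0130 adjusted over 5 names). mir-221 (0.22 and 0.50) and mir-222 (0.17 and 0.37) also had the larger spread in the ventral striatum in 8 of 8 cells, with the same p-values. miR-221-3p and mir-221 largely share reads, so their results are not separate cases. For miR-221-5p the means were 0.33 and 0.42 (5 of 8 cells, exact p = 0.227) and for miR-222-3p 0.22 and 0.28 (4 of 8 cells, exact p = 0.492). The ventral striatum libraries were the more deeply sequenced, and within them log2 reads had r of −0.24 with the miR-221-3p deviations. This r is of signed deviations and does not measure spread, and the part of depth in the spread was not tested.

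Other mature miRNAs followed the same deviations. Among 181 names with a mean of at least 100 RPM, those most like miR-221-3p over the 48 libraries were miR-128-3p (r = 0.82), a neuronal miRNA, let-7f-5p (r = 0.82), of the let-7 family that rises as cells mature, and miR-139-5p (r = 0.81). Those most like miR-222-3p were miR-30c-5p (r = 0.75), miR-148a-5p (r = 0.71) and miR-328a-3p (r = 0.70). No name was among the first 3 for both members, but miR-139-5p ranked 5 for miR-222-3p (r = 0.67). Within a library all names share its depth and scaling.

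Marker sums moved with the cluster too. The oligodendrocyte sum had r of −0.57 in the amygdala against −0.70 in the ventral striatum with miR-221-3p, and −0.53 and −0.40 with miR-222-3p. The neuronal sum had r of 0.48 and 0.73 with miR-221-3p, and 0.18 and 0.32 with miR-222-3p. For the sum of the growth factor and activity list r was 0.76 and 0.66 with miR-221-3p, and 0.40 and 0.25 with miR-222-3p. Each sum adds RPM, so the most abundant names of a list weigh most. On this list miR-146b-5p is one such name, and its hairpin mir-146b had a median of 24202.5 reads. Endothelial, mural, blood, microglial and choroid plexus sums had r between −0.45 and 0.28 with miR-221-3p. With miR-222-3p these sums had r between −0.46 (endothelial) and 0.22 (choroid plexus), both in the ventral striatum, where the mural sum had −0.39. The part of the makeup of each dissected pool in these deviations was not tested.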

How the data were processed

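The authors trimmed reads at Phred 20, used Bowtie for alignment to Rn5 and Partek Flow with miRBase 21 for quantification, and deposited a normalized signal per name and library, read here as RPM because the mature and the precursor values each sum to 1000000. The sources used here do not state how reads matching several names were divided. For 56 names given on several lines (122 lines) the sum was used. The smallest step gave the worth of 1 read, by which all member values were whole reads to within 0.02. Reads carry no molecular identifiers, so read numbers describe counting error only.

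Names above 0 in at least 6 of 24 libraries of a region (12 of 48 for both) entered limma 3.58.1 (R 4.3.3, cells of sex and treatment, trend) as log2(RPM + 1), two-sided with Benjamini-Hochberg adjustment at 0.05. Such differences understate those of low names. Ratios were tested by 100000 permutations, or exactly below 10 libraries a group, in Python 3.11.15. Samples labelled as replicates are separate pools.

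Members, lists and tests were chosen with earlier results of these data known. Text names all members, the 3 mature names most like each 3p member and, per list, counts and the 2 names with the smallest p between regions. Single called names of the lists were named after their values were seen. Alternatives were other pseudocounts and filters, median-ratio rescaling, blocks, a depth covariate and each library left out. The spread, the precursor ratio and both sets of libraries left out were added after values were seen. Calculations were tested on simulated data.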

Additional observations from a re-analysis of the deposited data

Results flagged for a closer look

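Dixon's test was applied to the 6 pools of each member, region and treatment, 40 groups in all, and chance flags about 1 in 20 groups. It marked 2, both miR-222-3p in the ventral striatum of ethanol-exposed rats. Enriched replicate F3 had 158.2 RPM against 86.9 to 93.6 RPM in the other 5 pools, and non-enriched replicate M3 had 180.7 RPM against 78.1 to 115 RPM. Both libraries were also the highest of their group for miR-221-3p (2975 and 3632 RPM).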

How the results depend on the processing

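Under the alternatives, miR-221-5p and mir-222 stayed lower in the ventral striatum and called, and miR-221-3p and mir-221 stayed uncalled. miR-222-3p crossed the threshold of 0.05: it was called with a minimum mean of 10 RPM (−0.22, limma adjusted p = 0.0403), after median-ratio rescaling (−0.28, limma adjusted p = 0.00509), with a replicate block of consecutive library numbers (−0.22, limma adjusted p = 0.0417), and in 12 of 48 fits that each left out 1 library, namely ventral striatum control non-enriched F1, control enriched F2 and M1, ethanol-exposed non-enriched F1 and M3, and enriched F3, and amygdala control non-enriched F2 and M2, ethanol-exposed non-enriched F1 and M1, and enriched F3 and M1. Over all 48 such fits the value ran from −0.26 to −0.19 and the limma adjusted p from 0.00628 to 0.0833. The first had fewer names to adjust over, and the cause of the others was not tested. Rescaling shifted the median of all names by −0.06 (mature) and −0.08 (precursor).

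Arm ratios of miR-221 kept their direction throughout, with control enriched rats alone at −0.34 (exact p = 0.0823). The mir-222 to mir-221 ratio was not called in males (−0.12), or in control enriched (−0.17), control non-enriched (−0.049), ethanol-exposed enriched (−0.16) or ethanol-exposed non-enriched rats (−0.23) alone, each with fewer libraries.

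Whether libraries were paired by replicate number is not decided by the correlations of their deviations. Within a region, libraries of one sex and number but different treatments are separate pools, so their correlations cannot show pairing between regions. These had a median of −0.05 in the amygdala against 0.03 in the ventral striatum, over 0.1 in 14 of 36 pairs each. Between regions, libraries of one number, sex and treatment had a median of 0.03 (−0.35 to 0.56), over 0.1 in 11 of 24 pairs. Consecutive library numbers had a median of 0.05. A replicate block of numbers within sex changed no call. That block is nested in sex, so the sex estimates of its fit compare only replicates M1 with replicates F1. They were negative for 4 names (miR-221-3p −0.15, miR-221-5p −0.078, mir-221 −0.15, mir-222 −0.037) and do not stand for the sex difference over all pools.

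Uncalled estimates also changed sign. Sex estimates became −0.0096 for miR-221-3p and −0.0103 for mir-221 without both choroid-rich libraries, 0.039 for miR-222-3p without the 9 amygdala libraries of few reads, and −0.0013 for mir-221 after rescaling. With the depth covariate V S(EvC) became −0.026 (miR-221-3p), −0.057 (miR-221-5p), −0.048 (mir-221) and −0.0021 (mir-222). Leaving out 1 library, sex estimates ran from −0.041 to 0.0700 (miR-221-3p), −0.052 to 0.028 (miR-222-3p), −0.0404 to 0.065 (mir-221) and −0.0064 to 0.076 (mir-222). V N(EvC) ran from −0.14 to 0.32 (miR-221-3p), 0.0018 to 0.30 (miR-222-3p, same sign), −0.14 to 0.29 (mir-221) and −0.18 to 0.15 (mir-222). V S(EvC) ran from −0.10 to 0.27 (miR-221-3p), −0.093 to 0.23 (miR-221-5p), −0.0062 to 0.23 (miR-222-3p), −0.11 to 0.25 (mir-221) and −0.0040 to 0.25 (mir-222). V C(SvN) ran from −0.0900 to 0.11 (miR-222-3p), and V E(SvN) from −0.44 to 0.0104 (miR-221-3p), −0.12 to 0.30 (miR-221-5p), −0.18 to 0.14 (miR-222-3p), −0.41 to 0.017 (mir-221) and −0.30 to 0.029 (mir-222). No member was called in any of these fits. Depth limits miR-221-5p most, with 12 to 74 reads.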
